A study of Mus musculus with 200 samples.

Results

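Ovol2 KO epiblasts of mouse embryos were compared with control epiblasts of the same experimental batch. The comparison used 6 of the 200 libraries of the series, namely the 3 epiblast libraries labelled Ovol2 KO and the 3 control libraries of batch 9 in a screen of transcription and chromatin factors with 148 libraries. Members were chosen by their column names alone. The libraries labelled Ovol2 KO came from embryos made by C-CRISPR, in which several guides against 1 gene are injected into the zygote to obtain complete knockouts without a breeding line. The control libraries are labelled wild type. Embryos of both groups were grown in 3D culture through the peri-implantation period, and epiblast cells (labelled Epi) were collected at E5.0. About 10 to 100 cells were lysed per library and their polyadenylated RNA was amplified for 17 cycles by Smart-seq2, with 3 biological replicates stated per group. The labels give neither the guide positions, nor the number of embryos pooled, nor how far editing was complete. Values are TPM, a share of the library's transcripts corrected for transcript length.

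OVOL2 is a zinc finger transcription factor of the Ovo family. In epithelia it is known as a repressor of genes of the epithelial to mesenchymal transition (EMT), Zeb1 among them, and ZEB1 in turn represses genes of cell polarity and junctions by binding CAGGTG boxes. In the mouse, loss of Ovol2 is known to be lethal in mid-gestation. The epiblast at E5.0 is a polarised epithelium that encloses a lumen and is surrounded by primitive endoderm and by trophoblast.

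The targeted transcript came first as a check of the labels. Ovol2 had 6.79, 11.02 and 8.56 TPM in the libraries labelled Ovol2 KO, against 3.88, 3.36 and 5.73 TPM in controls. The lowest library labelled Ovol2 KO exceeded the highest control, and the log2 change of 0.88 ± 0.66 (SE, n = 3 each) did not pass (limma, adjusted p = 1.00). Libraries of both groups failed to overlap, with the Ovol2 KO side higher, for 11.9% of the tested genes. The transcript level gave no sign of the knockout, and edited transcripts can persist, so the level neither marks nor tests the edit and the libraries are named here by their label. Among the other knockouts of the batch, mean Ovol2 ranged between 2.53 TPM in Zfp281 KO and 9.42 TPM in Smad2 KO.

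The label Epi was checked against markers. The 7 epiblast markers summed to between 1234 and 1260 TPM in the libraries labelled Ovol2 KO, against 1310 to 1489 TPM in controls, and 0 of the 7 passed in either direction (limma; 2 had an unadjusted p under 0.05). Utf1, an epiblast chromatin factor, had 630, 690 and 698 TPM in the libraries labelled Ovol2 KO, against 766, 759 and 761 TPM in controls. Pou5f1, which encodes OCT4, had 28.8, 23.3 and 37.1 TPM in the libraries labelled Ovol2 KO, against 57.6, 63.6 and 75.6 TPM in controls, without passing (limma, adjusted p = 0.239). The epiblast markers were thus present in both groups, but they were not alone. The 12 trophectoderm and extraembryonic ectoderm markers summed to between 4106 and 4238 TPM in the libraries labelled Ovol2 KO, against 2928 to 3121 TPM in controls, and none of them was at 0 in all 6 libraries. Most of each sum came from the keratin genes Krt8 and Krt18, which averaged 1160 and 2314 TPM in the libraries labelled Ovol2 KO. In controls these keratin genes averaged 723 and 1744 TPM. Means of Krt7, Hand1 and Ascl2 were lower in the libraries labelled Ovol2 KO than in controls, and those of the other markers were higher. Elf5, a transcription factor that defines trophoblast, had 156, 139 and 161 TPM in the libraries labelled Ovol2 KO, against 121, 107 and 135 TPM in controls. Trophoblast RNA was therefore measured in libraries of both groups, and the name epiblast is used as the label and not as a purity. Sums of primitive endoderm markers were 77.8 to 82.9 TPM in the libraries labelled Ovol2 KO and 48.0 to 54.7 TPM in controls. Blood markers summed to at most 3.65 TPM in the libraries labelled Ovol2 KO and at most 12.0 TPM in controls, and Hbb-bs, Ptprc and Tyrobp were listed at 0 in all 6. Decidual and fibroblast markers summed to at most 6.73 TPM in the libraries labelled Ovol2 KO and at most 3.47 TPM in controls. In such bulk libraries fewer cells of a type and less RNA per cell cannot be told apart, and the part of this makeup in the results below was not tested.

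Across the genome the libraries labelled Ovol2 KO differed from controls in few genes, mostly upward, with the largest rises in Ctsll3, BC051665 and BC053393. The test covered the 11160 genes that reached 1 TPM in 3 or more of the 6 libraries. A gene under 1 TPM in every library of 1 group entered only through the other group, so its direction was set beforehand. Of these, 74 passed (limma on log2(TPM + 1), Benjamini-Hochberg adjusted p under 0.05), which is 0.663%. Of the 74, 60 were higher in the libraries labelled Ovol2 KO (0.538%) and 14 were lower (0.125%). At an unadjusted p under 0.05 there were 432 genes. The median log2 change over all tested genes was -0.02. In all 74 genes the libraries of both groups did not overlap, as was the case for 23.6% of tested genes (11.9% higher and 11.7% lower). The rises reached 2-fold in 48 of the 60 genes and the falls in 6 of the 14. Among the 50 groups of the screen, the mean of the libraries labelled Ovol2 KO was the highest for 0 of the 60 genes that rose, and its rank over these genes ran between 2 and 42, with a median of 18. In 1 other batch, of Bend3 KO and control, the library titles give a later day than E5.0. Its groups enter the ranks, the ranges over other batches and the shared fit.

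**Figure D1:**
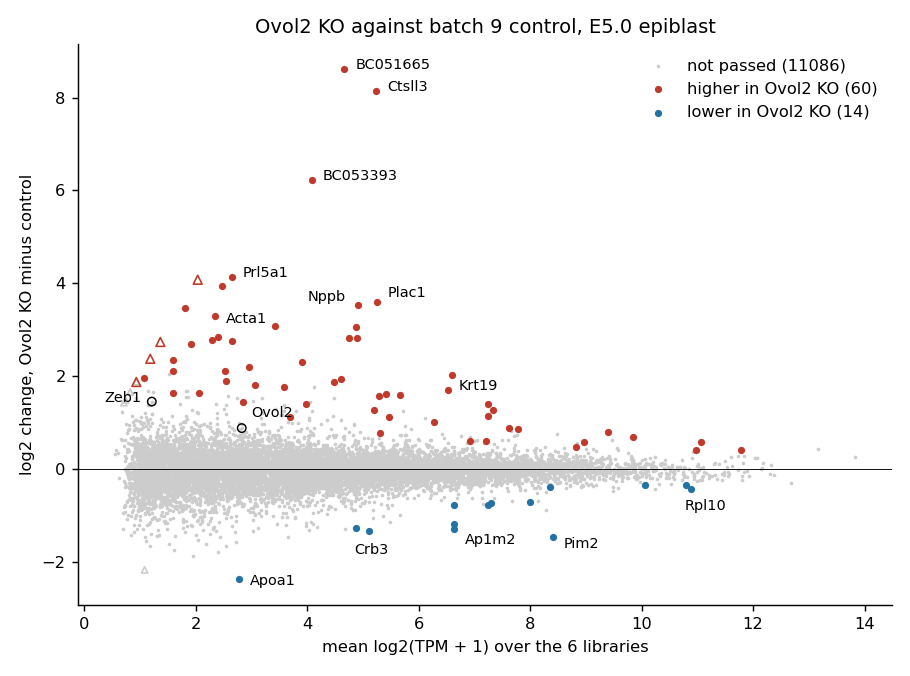
Each point is 1 of the 11160 tested genes, plotted by its mean log2(TPM + 1) over the 6 libraries and by its log2 change, Ovol2 KO minus control. Red points are the 60 genes higher and blue points the 14 genes lower in libraries labelled Ovol2 KO, black circles mark Ovol2 and Zeb1, which did not pass, and open triangles mark the 10 genes listed at 0 throughout 1 group, whose height depends on the pseudocount and is no fold. Ctsll3, BC051665 and BC053393 lie above all other genes.

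The largest fold belonged to a pair of neighbouring cathepsin genes. Ctsll3 encodes a cathepsin L-like cysteine protease, and lies at chr13:60798250-60802849 on the minus strand (mm10). BC051665, at chr13:60781887-60786364 on the same strand, is its neighbour and was taken up after its values were seen, since clone names were outside the rule for named genes. Their promoters, from 250 bases before to 50 bases after the start in RefSeq (GRCm38.p6), are shown because both genes moved together. They aligned over 305 columns with 87.9% identity, and capitals mark the CAGGTG box on either strand, which the Ctsll3 promoter holds once and the BC051665 promoter does not hold.
Ctsll3, chr13:60802795-60803094, minus strand: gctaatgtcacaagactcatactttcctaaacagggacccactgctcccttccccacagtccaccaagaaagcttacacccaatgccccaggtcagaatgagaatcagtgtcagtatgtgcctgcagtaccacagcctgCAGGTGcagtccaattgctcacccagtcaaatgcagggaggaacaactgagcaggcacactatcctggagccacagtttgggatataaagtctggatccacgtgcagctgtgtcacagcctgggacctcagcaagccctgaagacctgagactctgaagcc
BC051665, chr13:60786315-60786614, minus strand: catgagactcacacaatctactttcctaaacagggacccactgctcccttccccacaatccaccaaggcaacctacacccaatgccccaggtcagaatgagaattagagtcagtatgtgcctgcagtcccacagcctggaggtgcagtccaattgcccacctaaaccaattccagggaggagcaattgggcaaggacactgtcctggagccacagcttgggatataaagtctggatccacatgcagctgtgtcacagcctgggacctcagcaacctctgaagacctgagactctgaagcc

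Ctsll3 had 653, 633 and 619 TPM in the libraries labelled Ovol2 KO, against 0, 4.71 and 1.00 TPM in controls, a log2 change of 8.14 ± 0.48 (SE; limma, adjusted p = 1.28e-27). BC051665 had 549, 465 and 491 TPM in the libraries labelled Ovol2 KO, against 0.680, 0 and 0.273 TPM in controls (log2 change 8.60 ± 0.53; limma, adjusted p = 1.86e-26). Every library labelled Ovol2 KO was thus at 465 TPM or more for both genes, while every control stayed at 4.71 TPM or less. In the control libraries of the other batches, group means of Ctsll3 lay between 0 and 15.9 TPM and those of BC051665 between 0.0876 and 17.1 TPM. Knockouts of the screen reached higher levels, and the mean of the libraries labelled Ovol2 KO ranked 8 among the 50 groups for Ctsll3 and 13 for BC051665. The genes are close copies, and reads may have been divided between them in a way that the tables do not show. Among the other knockouts of batch 9, mean Ctsll3 was 4.19 TPM in Smad2 KO, 156 TPM in Sox4 KO, 66.1 TPM in Wt1 KO and 9.26 TPM in Zfp281 KO. Mean BC051665 was 41.1 TPM in Smad2 KO, 369 TPM in Sox4 KO, 50.3 TPM in Wt1 KO and 81.0 TPM in Zfp281 KO. Any difference of these knockouts from control rests on the same 3 control libraries. Of 11 tested cathepsin genes, a family picked after the values were seen, 3 were higher, the third being Ctsc, the lysosomal dipeptidyl peptidase, with 68.3, 62.9 and 63.8 TPM in the libraries labelled Ovol2 KO, against 31.6, 29.1 and 26.9 TPM in controls. Ctsl, Ctsb, Ctsd and Ctsz, lysosomal cathepsins of many tissues, did not pass. Over all tested genes 0.538% were higher. Ctsll3 and BC051665 did not reach the filter on the control libraries alone, so the filter favours rises in this count.

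A run of 4 neighbouring genes on chromosome 11 behaved alike. In the span chr11:46524212-46645006, all 4 tested genes, Gm12169, BC053393, Dppa1 and Gm4926, were higher in the libraries labelled Ovol2 KO. Over all tested genes 0.538% were. Gm12169, BC053393 and Gm4926 did not reach the filter on the control libraries alone. BC053393 had 153, 142 and 141 TPM in the libraries labelled Ovol2 KO, against 1.37, 0.635 and 0.955 TPM in controls (log2 change 6.22 ± 0.42; limma, adjusted p = 7.21e-24). Dppa1 had 18.9, 21.6 and 23.4 TPM in the libraries labelled Ovol2 KO, against 3.72, 6.17 and 7.29 TPM in controls (log2 change 1.76 ± 0.39; limma, adjusted p = 0.00357). Mean BC053393 was 55.9 TPM in Smad2 KO, 172 TPM in Sox4 KO, 31.4 TPM in Wt1 KO and 41.3 TPM in Zfp281 KO. BC053393 passed under every alternative tried. Gm12169 was lost without any 1 library other than Ovol2 KO replicate 2 (limma, adjusted p up to 0.0954), Gm4926 without Ovol2 KO replicate 1 or 2 or control replicate 2 or 3 (up to 0.166) and with quantile normalization, and Dppa1 without control replicate 1 (0.109) and with a pseudocount of 0.1. These 4 genes, like the other runs of neighbours, were picked out after their values were seen. Of the 74 genes, 19 lay in 8 such runs, in which called genes start within 200000 bases of each other. How often tested genes lie this close was not measured, so the count shows no excess of neighbours. Besides the cathepsin pair and the run on chromosome 11 these held Prl7a1 with Prl2a1, Lgals2 with Lgals1, Krt8 with Krt18, and Gsta1 with Gm3776 and Gsta2 among the rises, and Gstp1 with Gstp2 and Bex4 with Bex1 among the falls.

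Placental hormone and membrane genes rose too. Plac1, which encodes a trophoblast membrane protein needed for placental growth, had 133, 129 and 131 TPM in the libraries labelled Ovol2 KO, against 9.98, 11.7 and 8.42 TPM in controls (log2 change 3.59 ± 0.24; limma, adjusted p = 7.21e-24). Prl5a1, of the placental prolactin family, had 26.0, 21.8 and 29.4 TPM in the libraries labelled Ovol2 KO, against 1.37, 0 and 0.427 TPM in controls (log2 change 4.14; limma, adjusted p = 6.31e-09). Prl2c5, a proliferin of trophoblast giant cells, had 12.1, 11.4 and 12.0 TPM in the libraries labelled Ovol2 KO, against 1.08, 0.773 and 0.808 TPM in controls (log2 change 2.77; limma, adjusted p = 0.00221). Controls stayed at 1.37 TPM or less for Prl5a1 and Prl2c5 but held 8.42 TPM or more of Plac1, and for all 3 genes each library labelled Ovol2 KO stood clear of them. With a pseudocount of 0.1 in place of 1, Prl2c5 no longer passed (limma, adjusted p = 0.310). Prl7a1 had 13.6, 20.2 and 14.5 TPM and Prl2a1 had 7.70, 3.96 and 5.86 TPM in the libraries labelled Ovol2 KO, and both were listed at 0 in all 3 controls. Prl3d2, a placental lactogen gene, had 16.3, 10.4 and 7.54 TPM in the libraries labelled Ovol2 KO, against 1.31, 1.93 and 2.16 TPM in controls (log2 change 2.10; limma, adjusted p = 0.0128). Prl3d2 was lost without any 1 library other than the third of either group and with a pseudocount of 0.1 (limma, adjusted p up to 0.215), and Prl2a1 without any 1 library other than Ovol2 KO replicate 2 and with quantile normalization (up to 0.209). Of the 26 prolactin family genes in the table, 7 were tested, 5 were higher and 0 lower, where 0.538% of all tested genes were higher. Prl7a1, Prl2a1, Prl5a1 and Prl2c5 did not reach the filter on the control libraries alone. The filter itself thus favours rises in this count. The remaining tested members, Prl3d1 and Prl3d3, were above controls in every library without passing. The family was picked after its values were seen. How alike its genes are was not measured, and reads of any close copies among them may be shared.

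Other large rises were in genes of muscle, a peptide hormone and alcohol metabolism. Nppb, the gene of B-type natriuretic peptide, had 97.1, 105 and 103 TPM in the libraries labelled Ovol2 KO, against 5.92, 8.19 and 9.98 TPM in controls (log2 change 3.53; limma, adjusted p = 1.86e-07). Acta1, skeletal muscle actin, had 12.9, 19.2 and 13.3 TPM in the libraries labelled Ovol2 KO, against 0, 1.14 and 0.992 TPM in controls (log2 change 3.29; limma, adjusted p = 5.93e-05). Myl4, an embryonic myosin light chain, had 34.4, 28.7 and 28.7 TPM in the libraries labelled Ovol2 KO, against 2.36, 2.48 and 3.33 TPM in controls (log2 change 3.09; limma, adjusted p = 1.74e-06). Each of these genes is an abundant product of the heart or of muscle in the adult, and none had a control library near the lowest library labelled Ovol2 KO. Adh1, an alcohol dehydrogenase, averaged 10.7 TPM in the libraries labelled Ovol2 KO and 0.055 TPM in controls (log2 change 3.48). Il24, a cytokine, Tspan8, a tetraspanin, Tppp3, a tubulin-binding protein, Anxa1, a phospholipid-binding annexin, and Crxos were higher by 3.94, 3.05, 2.84, 2.82 and 2.81 on the log2 scale. Il24 averaged 21.6 TPM and Tspan8 84.1 TPM in the libraries labelled Ovol2 KO. Among the other knockouts of batch 9, means ran from 6.44 to 21.5 TPM for Il24 and from 16.4 to 78.4 TPM for Tspan8. Against those knockouts Il24 did not pass. Tppp3 was lost without control replicate 1 and with a pseudocount of 0.1 (limma, adjusted p up to 0.159), and Acta1 with that pseudocount (limma, adjusted p = 0.0564).

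**Figure D2:**
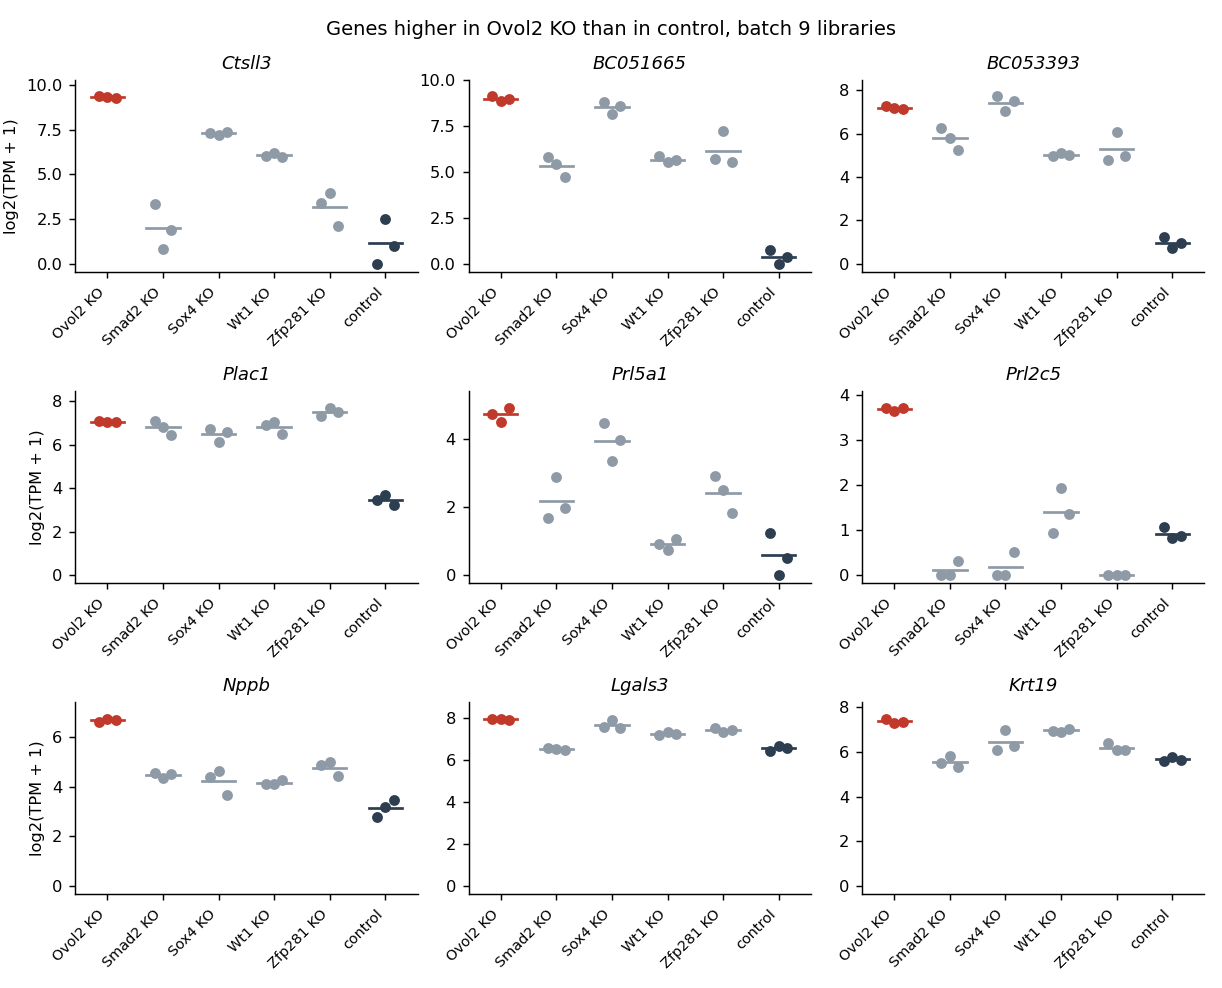
Each panel gives 1 gene as log2(TPM + 1), with a point for each of the 3 libraries and a bar for their mean in Ovol2 KO (red), the other 4 knockouts of batch 9 (grey) and control (dark). For every gene shown but BC053393 and Plac1 the libraries labelled Ovol2 KO lie above all others of the batch, those of Sox4 KO lie near them for BC051665 and BC053393, and Plac1 is at 67.7 TPM or more in every knockout library, against 11.7 TPM or less in controls.

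Some keratin and galectin genes were higher as well. Krt8 and Krt18 encode the keratin pair of simple epithelia and of trophoblast. Krt8 had 1153, 1187 and 1139 TPM in the libraries labelled Ovol2 KO, against 742, 737 and 689 TPM in controls (log2 change 0.68 ± 0.13; limma, adjusted p = 0.000252). Krt18 averaged 2314 TPM in the libraries labelled Ovol2 KO and 1744 TPM in controls (log2 change 0.41; limma, adjusted p = 0.0244), and stayed past the threshold without control replicate 2, but not without any of the other 5 libraries (adjusted p up to 0.410). Krt19, a further keratin of simple epithelia, had 177, 156 and 162 TPM in the libraries labelled Ovol2 KO, against 47.2, 53.5 and 48.9 TPM in controls (log2 change 1.70; limma, adjusted p = 1.47e-05, and 0.0535 with a pseudocount of 0.1). Lgals3, a lectin that binds galactosides, had 248, 247 and 239 TPM in the libraries labelled Ovol2 KO, against 84.1, 101 and 92.5 TPM in controls (log2 change 1.40 ± 0.14; limma, adjusted p = 4.59e-13). Of 7 tested keratin genes 3 were higher and 0 lower (median log2 change 0.41), and Krt7, of simple epithelia too, changed by -0.27 without passing. Of 7 tested galectin genes 3 were higher and 0 lower (median 0.80). Of 20 tested glutathione S-transferase genes 3 were higher, all of the Gsta group, and 2 lower, Gstp1 and Gstp2 (median -0.10). Over all tested genes 0.538% were higher and 0.125% lower, and these families were picked after their values were seen. Perp, a junction protein and p53 target, averaged 225 TPM in the libraries labelled Ovol2 KO and 104 TPM in controls (log2 change 1.14; limma, adjusted p = 0.00350). The hormone gene Sct (secretin), the endocytic adaptor gene Dab2 and the protease inhibitor gene Spink1 were higher by 1.90, 1.27 and 1.40 on the log2 scale. Their means in the libraries labelled Ovol2 KO were 10.4, 56.3 and 24.7 TPM. Among the other knockouts of batch 9, means ran from 3.67 to 20.9 TPM for Sct and from 32.1 to 112 TPM for Dab2. They ran from 13.5 to 110 TPM for Spink1 and from 108 to 473 TPM for Perp. Against those knockouts Sct, Dab2, Spink1 and Perp did not pass. Perp was lost without control replicate 2 and Sct without control replicate 3, Dab2 without any 1 of the 6 libraries and Spink1 without any 1 other than Ovol2 KO replicate 3.

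Of the 60 genes that rose, 10 stood in at least 1 of the 34 lists and 50 in none. As a measure for the lists, 0.538% of all tested genes were higher and 0.125% lower. Of the 28 tested trophectoderm and extraembryonic ectoderm markers, 5 were higher (Plac1, Krt8, Krt18, Prl2c5 and Sct) and 0 lower, with a median log2 change of 0.11 beside -0.02 over all genes. None of the tested transcription factors of that list passed. Gata2 changed by 1.00, Ascl2 by -0.48, Eomes by 0.29, Tfap2c by 0.30, Gata3 by 0.41, Cdx2 by 0.14 and Hand1 by -0.07 on the log2 scale (limma, adjusted p = 1.00 for each), and the libraries of both groups did not overlap for Gata2 and Ascl2. Of the 9 tested surface ectoderm genes, 4 were higher (Krt8, Krt18, Krt19 and Perp), of which Krt8 and Krt18 stand in the trophectoderm list too. Of the 23 tested primitive endoderm markers, 2 were higher (Dab2 and Spink1) and 1 lower (Apoa1), with a median of 0.46. An unadjusted p under 0.05 was found for 10 of the 23 (limma), beside 432 of all 11160 tested genes. Libraries of both groups did not overlap for 13 of the 23 with the Ovol2 KO side higher and for 3 with it lower. Over all tested genes these shares were 11.9% and 11.7%. The regulators of primitive endoderm were near the lower limit. Sox17 had 1.87, 2.59 and 2.42 TPM in the libraries labelled Ovol2 KO, against 0.406, 0.676 and 0.606 TPM in controls. Sox7 had 1.76, 1.54 and 1.09 TPM in the libraries labelled Ovol2 KO, against 0, 0 and 0.153 TPM in controls. Neither passed (limma, adjusted p = 0.981 for Sox17 and 0.317 for Sox7). Gata4, Gata6 and Pdgfra were too low to be tested.

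EMT genes were examined because OVOL2 is known to repress them. Zeb1 had 2.40, 2.83 and 3.35 TPM in the libraries labelled Ovol2 KO, against 0.299, 0.391 and 0.529 TPM in controls, and the libraries did not overlap. The log2 change of 1.45 ± 0.42 missed the threshold against controls (limma, adjusted p = 0.0957) and the same gene passed against the other knockouts of the batch (log2 change 1.40 ± 0.33; limma, adjusted p = 0.00806). Mean Zeb1 in those knockouts was 0.160 TPM in Smad2 KO, 0.553 TPM in Sox4 KO, 0.343 TPM in Wt1 KO and 0.930 TPM in Zfp281 KO. In the control groups of the other batches it was between 0 and 1.13 TPM, and the mean of the libraries labelled Ovol2 KO was the second highest of the 50 groups of the screen. With the spread taken from batch 9 libraries only, Zeb1 passed against controls too (limma, adjusted p = 0.00231). Over the alternatives its adjusted p reached 1.00, with a pseudocount of 0.1. Of the 12 EMT transcription factors 4 were tested and 0 passed (limma; only Zeb1 had an unadjusted p under 0.05). Snai1, an EMT repressor gene of the Snail family, had 8.90, 7.58 and 8.68 TPM in the libraries labelled Ovol2 KO, against 5.25, 8.34 and 14.3 TPM in controls, with overlap. Zeb2, Snai2, Twist1 and Twist2 stayed at 1.03 TPM or less in all 6 libraries.

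Mesenchymal structural genes did not pass. Of 22 such genes 8 were tested and 0 passed (limma; only Vim had an unadjusted p under 0.05), with a median log2 change of 0.11. Vim (vimentin) had 18.98, 18.4 and 15.4 TPM in the libraries labelled Ovol2 KO, against 8.23, 5.89 and 6.50 TPM in controls (log2 change 1.25 ± 0.53; limma, adjusted p = 0.848). Its libraries did not overlap. Fn1 (fibronectin) and Sparc, an extracellular matrix protein, changed by -0.08 and 0.04 on the log2 scale, and Cdh2 (N-cadherin) was under 1 TPM in all 6 libraries. Of the 18 tested basement membrane and integrin genes 0 passed (limma), and 3, the laminin genes Lama1 and Lamc1 and the collagen gene Col4a1, had an unadjusted p under 0.05.

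Epithelial genes were lower in 3 cases and otherwise did not pass. All 33 genes of the epithelial list were tested, 0 were higher and 3 were lower, namely Ap1m2, Crb3 and Cldn7. Over all tested genes 0.125% were lower. The list's median log2 change was -0.23, beside -0.02 over all genes, and 26 of the 33 changes were negative. Ap1m2 encodes the subunit of the AP-1B adaptor that sorts proteins to the basolateral membrane of epithelial cells, CRB3 is an apical polarity protein of the Crumbs complex, and CLDN7 is a tight junction claudin. Their promoters are shown since each carries the CAGGTG box known for ZEB factors, and that of Crb3 also the letters known for Ovo proteins. Capitals mark CAGGTG (or CACCTG on the other strand) and CCGTTA (or TAACGG), the core known for Ovo proteins. Where Crb3 and Cldn7 had 2 entries, the one with more kinds of motif is given, or the first by position where these were equal.
Ap1m2, chr9:21312284-21312583, minus strand: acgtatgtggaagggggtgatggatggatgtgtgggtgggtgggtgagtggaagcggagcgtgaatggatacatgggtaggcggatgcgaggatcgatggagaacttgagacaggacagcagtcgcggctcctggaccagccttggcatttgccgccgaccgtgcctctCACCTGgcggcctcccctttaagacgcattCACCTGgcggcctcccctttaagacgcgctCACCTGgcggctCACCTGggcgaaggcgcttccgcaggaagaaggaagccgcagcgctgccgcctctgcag
Crb3, chr17:57061951-57062250, plus strand: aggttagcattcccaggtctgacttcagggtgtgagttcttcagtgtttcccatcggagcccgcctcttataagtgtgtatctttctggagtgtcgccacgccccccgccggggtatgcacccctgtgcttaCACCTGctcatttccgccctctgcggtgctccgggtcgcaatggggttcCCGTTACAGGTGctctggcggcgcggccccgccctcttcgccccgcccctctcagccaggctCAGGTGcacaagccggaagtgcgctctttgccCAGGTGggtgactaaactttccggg
Cldn7, chr11:69965171-69965470, plus strand: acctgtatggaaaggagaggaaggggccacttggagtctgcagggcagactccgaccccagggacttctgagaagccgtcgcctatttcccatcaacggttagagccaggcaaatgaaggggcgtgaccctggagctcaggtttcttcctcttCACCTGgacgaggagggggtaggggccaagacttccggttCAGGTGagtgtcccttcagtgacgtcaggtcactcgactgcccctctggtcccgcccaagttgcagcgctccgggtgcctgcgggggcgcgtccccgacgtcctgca

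The box CAGGTG occurs 4 times in the Ap1m2, 4 times in the Crb3 and 2 times in the Cldn7 promoter, and in Crb3 one box directly follows the single CCGTTA. Among tested genes with a promoter in the RefSeq table, 20.8% of 8858 held CAGGTG and 4.74% held CCGTTA on either strand. Of the 22 epithelial genes with an entry, 17 held CAGGTG (77.3%) and 1 held CCGTTA, which was Crb3. Cdh1 and Grhl2 had no entry. Of the 60 genes that rose, 49 had an entry, of which 17 held CAGGTG (34.7%) and 2 held CCGTTA (Entpd1 and Myl4, 4.08%). All 14 genes that fell had an entry, of which 6 held CAGGTG (42.9%) and 1 held CCGTTA (Crb3, 7.14%). These matches are letters in a window and show no binding.

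Ap1m2 had 59.8, 66.2 and 61.9 TPM in the libraries labelled Ovol2 KO, against 147, 144 and 178 TPM in controls (log2 change -1.30 ± 0.22; limma, adjusted p = 1.99e-05). It passed under every alternative tried and was also lower than in the other knockouts of the batch (log2 change -0.83; limma, adjusted p = 0.00168). Crb3 had 22.5, 21.2 and 18.9 TPM in the libraries labelled Ovol2 KO, against 58.9, 53.6 and 49.5 TPM in controls (log2 change -1.33 ± 0.35; limma, adjusted p = 0.0438). Cldn7 had 111, 113 and 119 TPM in the libraries labelled Ovol2 KO, against 185, 168 and 248 TPM in controls (log2 change -0.78 ± 0.21; limma, adjusted p = 0.0405). Crb3 and Cldn7 stood just inside the threshold, and neither passed with a pseudocount of 0.1. Against the other knockouts of the batch neither passed (limma, adjusted p = 0.0798 for Crb3 and 0.684 for Cldn7). Mean Cldn7 was 115 TPM in the libraries labelled Ovol2 KO. It was 101 TPM in Smad2 KO, 215 TPM in Sox4 KO, 189 TPM in Wt1 KO and 125 TPM in Zfp281 KO. Crb3 did not pass when any 1 of the 6 libraries was left out (adjusted p up to 0.252), and Cldn7 did not pass without any 1 library other than control replicate 2 (adjusted p up to 0.701), nor with the spread of batch 9 libraries only. Cldn6, the claudin typical of early embryonic epithelia, had 225, 237 and 228 TPM in the libraries labelled Ovol2 KO, against 438, 408 and 430 TPM in controls, with a log2 change of -0.88 that did not pass (limma, adjusted p = 0.317). Cdh1 (E-cadherin) averaged 64.4 TPM in the libraries labelled Ovol2 KO and 75.6 TPM in controls, and Epcam, an epithelial adhesion molecule, 633 TPM in the libraries labelled Ovol2 KO and 651 TPM in controls, both with overlapping libraries. Grhl2, which encodes an epithelial activator that acts with OVOL2, changed by -0.30 on the log2 scale and did not pass. Of 19 tested genes of apical polarity and lumen formation 0 passed, also at an unadjusted p under 0.05 (limma).

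**Figure D3:**
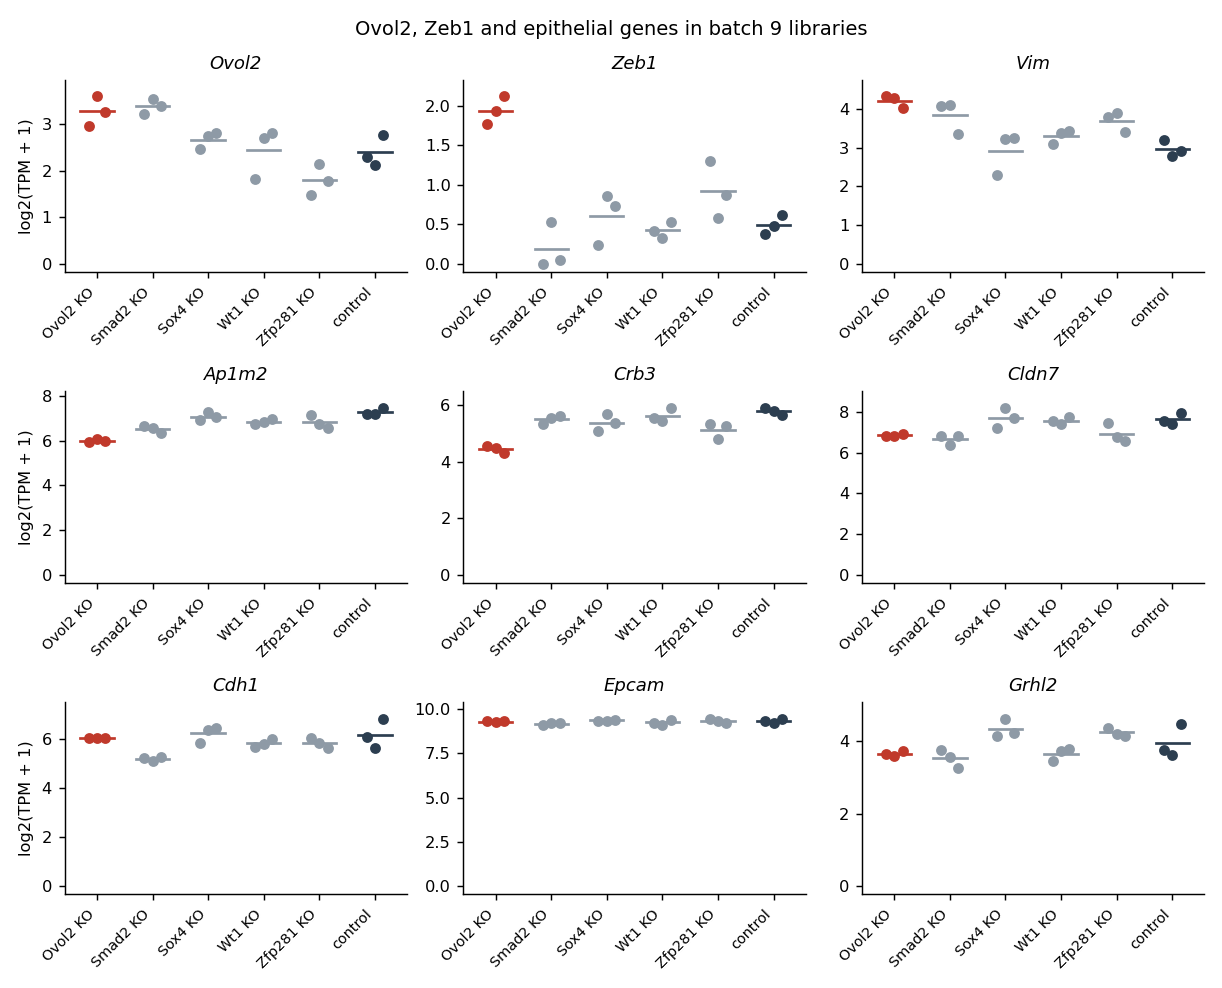
Each panel gives 1 gene as log2(TPM + 1), with a point for each of the 3 libraries and a bar for their mean in Ovol2 KO (red), the other 4 knockouts of batch 9 (grey) and control (dark). Zeb1 lies above all other libraries of the batch and Ap1m2 and Crb3 below them in the libraries labelled Ovol2 KO, while Cdh1, Epcam and Grhl2 overlap with control and Ovol2 itself is not reduced.

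The other falls were scattered. Apoa1, the apolipoprotein of high-density lipoprotein and a product of primitive endoderm, had 2.85, 1.84 and 1.48 TPM in the libraries labelled Ovol2 KO, against 14.7, 14.7 and 14.3 TPM in controls (log2 change -2.37 ± 0.59; limma, adjusted p = 0.0195). Mean Apoa1 was 1.23 TPM in Smad2 KO and 81.6 TPM in Wt1 KO, so that it varied widely within the batch. Apoa1 no longer passed when any 1 library other than Ovol2 KO replicate 1 was left out (limma, adjusted p up to 0.155). With a pseudocount of 0.1 it was lost too (limma, adjusted p = 0.753). Id3, a target of BMP signals that inhibits basic helix-loop-helix factors, had 57.0, 77.3 and 62.7 TPM in the libraries labelled Ovol2 KO, against 154, 145 and 148 TPM in controls (log2 change -1.18; limma, adjusted p = 0.0204). It was the only one of 14 tested BMP genes to pass, and stayed past the threshold without Ovol2 KO replicate 2, but not without any of the other 5 libraries (adjusted p up to 0.209). Hspb1, a small heat shock protein, and the glutathione S-transferases Gstp1 and Gstp2 had log2 changes of -0.72, -0.40 and -0.78, and Gstp1 was lost without Ovol2 KO replicate 3, control replicate 1 or control replicate 2.

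Of the 14 genes that fell, 5 lay on the X chromosome, which held 423 of the tested genes (3.79%) and 3 of the 60 rises. These were Pim2, a serine/threonine kinase, with 205, 199 and 206 TPM in the libraries labelled Ovol2 KO, against 543, 454 and 735 TPM in controls (log2 change -1.47; limma, adjusted p = 4.81e-05), the ribosomal protein genes Rpl10 and Rps4x, and Bex1 and Bex4. Rpl10 had 1641, 1689 and 1602 TPM in the libraries labelled Ovol2 KO, against 2268, 2188 and 2142 TPM in controls (log2 change -0.42; limma, adjusted p = 2.01e-05). Bex4 had 117, 122 and 124 TPM in the libraries labelled Ovol2 KO, against 197, 199 and 208 TPM in controls (log2 change -0.74; limma, adjusted p = 6.67e-05). Of these 5 genes Pim2 fell most, and Rpl10, Rps4x and Bex1 fell by 0.42, 0.34 and 0.34 on the log2 scale. The median log2 change was -0.14 over tested genes of the X chromosome and -0.01 over those of the autosomes. Transcripts of the sex chromosomes moved with the groups. Xist, the RNA of the inactive X chromosome, had 2.24, 1.67 and 2.72 TPM in the libraries labelled Ovol2 KO, against 6.43, 3.26 and 5.52 TPM in controls. Ddx3y, on the Y chromosome, had 30.2, 28.6 and 23.5 TPM in the libraries labelled Ovol2 KO, against 16.3, 14.9 and 17.1 TPM in controls. Neither passed (limma, adjusted p = 0.757 for Xist and 1.00 for Ddx3y), their libraries did not overlap, and the part of the embryos' sex in the X-linked falls was not tested. Rps4x was lost when any 1 library other than control replicate 3 was left out and Bex1 when any 1 of the 6 was. Pim2 passed under every alternative tried. Bex4 did so except under the 2-fold minimum, which its log2 change of -0.74 does not reach. Rpl10 was lost with the replicate number as a block (limma, adjusted p = 0.0529).

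Genes of pluripotency and signalling gave few calls. Of 13 naive, 13 core and 18 formative pluripotency genes tested, 0, 0 and 1 passed, the last being Pim2, and 1, 1 and 2 had an unadjusted p under 0.05 (limma). Of 19 tested Nodal pathway genes and 18 FGF and ERK feedback genes 0 passed (limma; 0 and 3 at an unadjusted p under 0.05). Of 14 tested Wnt signalling genes Sp8, a zinc finger factor of the Sp family, passed, with 4.58, 3.79 and 4.79 TPM in the libraries labelled Ovol2 KO, against 0.527, 0.521 and 1.19 TPM in controls (log2 change 1.64; limma, adjusted p = 0.0103). It was lost without Ovol2 KO replicate 1 or 3 and without control replicate 1 or 2. Fgf4, the growth factor by which the epiblast supports trophoblast, had 5.44, 6.62 and 9.61 TPM in the libraries labelled Ovol2 KO, against 16.1, 14.8 and 22.8 TPM in controls, and did not pass (log2 change -1.21; limma, adjusted p = 0.884). Of 36 tested genes of the bivalent chromatin machinery and 8 developmental Polycomb targets 0 passed (limma; 0 and 1 at an unadjusted p under 0.05), and none of the 2-cell stage list reached the level needed for a test. Of 30 ribosomal protein genes 1 was lower (Rpl10). Lists of glycolysis, sterol synthesis, mitosis, oxidative phosphorylation and ATF4 targets held 0 calls (limma). In that order 1 of 25, 2 of 21, 2 of 24, 7 of 34 and 4 of 19 tested members had an unadjusted p under 0.05. Over all genes 432 of 11160 did.

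**Figure D4:**
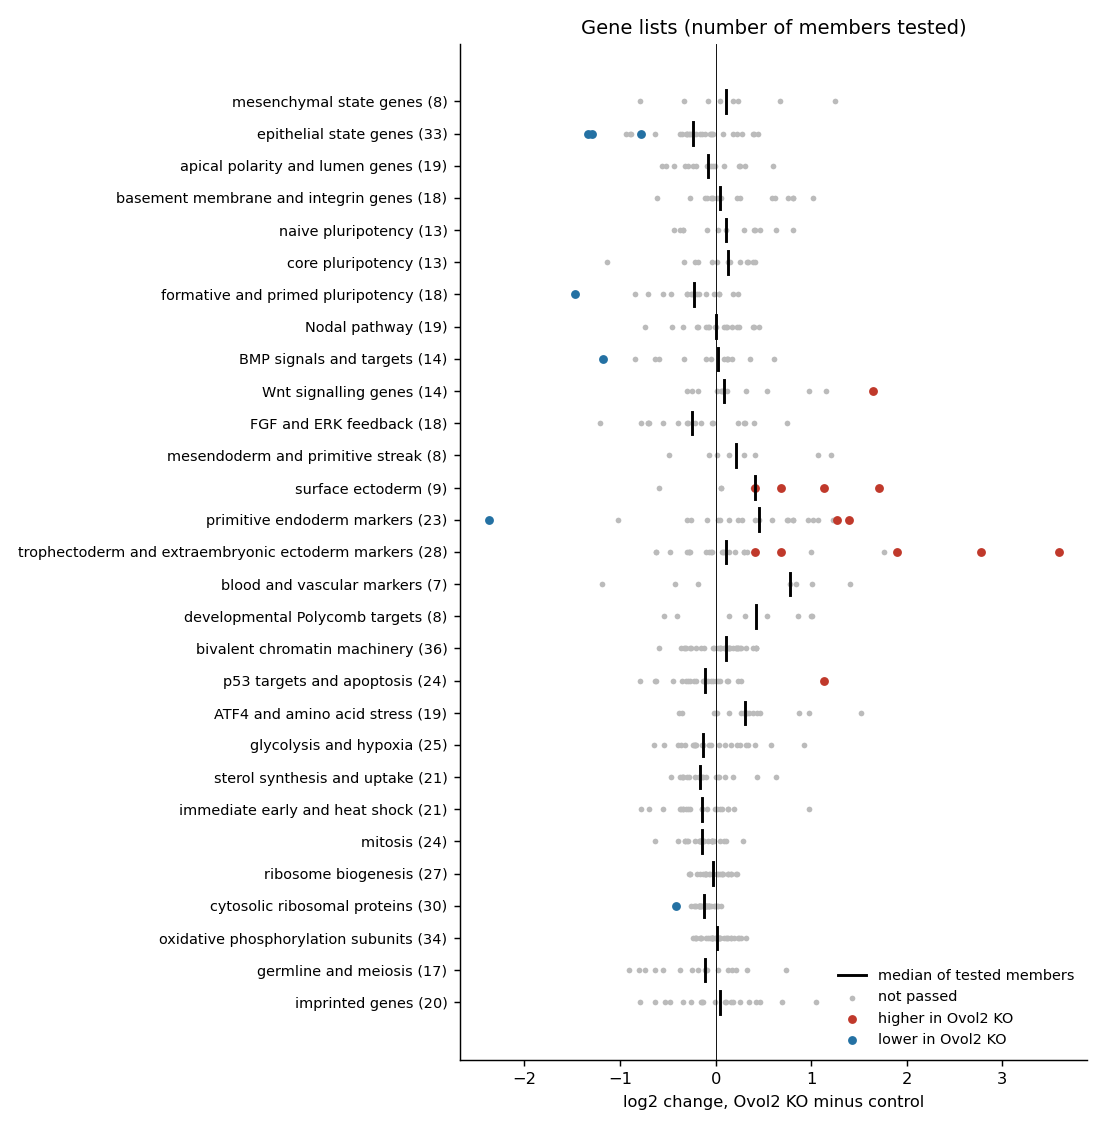
Each row is a gene list with at least 5 tested members (their number in parentheses), each point a member's log2 change, Ovol2 KO minus control, and the black bar the median. Red points were higher and blue points lower in libraries labelled Ovol2 KO, and most of them stand in the trophectoderm, surface ectoderm, primitive endoderm and epithelial rows.

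A second comparison set the libraries labelled Ovol2 KO against the 12 libraries of the other knockouts of batch 9 (Smad2, Sox4, Wt1 and Zfp281 KO), which were made in the same way, and did not use the controls. Here the cathepsin-like genes, Acta1 and Nppb were again higher, Zeb1 was higher in this comparison, and the placental lactogens were lower. Of 12260 genes tested 120 passed (0.979%), 58 higher (0.473%) and 62 lower (0.506%). Of the 60 genes higher than in controls 30 were also higher than in the other knockouts, and of the 14 lower ones 11 were also lower, with the same libraries labelled Ovol2 KO on both sides of this count. Ctsll3 was higher by 4.68 on the log2 scale (limma, adjusted p = 6.89e-18), Acta1 by 3.56 (1.33e-08), Prl2c5 by 3.26 (2.20e-07), Adh1 by 2.93 (7.62e-08), BC051665 by 2.55 (1.54e-05), Prl5a1 by 2.37 (7.81e-05) and Nppb by 2.28 (5.64e-05). Plac1 averaged 131 TPM in the libraries labelled Ovol2 KO, 112 TPM in Smad2 KO, 89.1 TPM in Sox4 KO, 113 TPM in Wt1 KO and 183 TPM in Zfp281 KO, and did not pass here (log2 change 0.15; limma, adjusted p = 1.00).

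Prl3d1, Prl3d2 and Prl3d3, the placental lactogen I genes of trophoblast giant cells, and Prl7a1 ran the other way. Prl3d1 had 33.5, 25.2 and 35.1 TPM in the libraries labelled Ovol2 KO, against 100 to 1753 TPM in the 12 libraries of the other knockouts (log2 change -3.92 ± 0.54; limma, adjusted p = 9.42e-08), and 12.3, 6.07 and 7.98 TPM in controls. Prl3d2 fell by 3.37 (limma, adjusted p = 3.38e-10), Prl3d3 by 3.67 (8.43e-15) and Prl7a1 by 2.09 (6.20e-05) on the log2 scale. For Prl3d1, Prl3d2 and Prl3d3 each library labelled Ovol2 KO lay above the controls and below the other knockouts. For Prl7a1 replicate 2, at 20.2 TPM, overlapped with the other knockouts, which began at 19.12 TPM. Prl3d2, Prl7a1 and the pseudogene Rps18-ps4 were the 3 genes higher than in controls and lower than in the other knockouts. Of the primitive endoderm markers Ttr, Apoa1, Apoe and Cer1 were lower and 0 higher, and of the 30 ribosomal protein genes 7 were lower and 1 higher. Ttr (transthyretin) averaged 3.46 TPM in the libraries labelled Ovol2 KO, 3.46 TPM in Smad2 KO, 22.1 TPM in Sox4 KO, 46.8 TPM in Wt1 KO and 6.57 TPM in Zfp281 KO, so the other knockouts were not alike. Group means of Prl3d1 in the controls of other batches ran from 0 to 5866 TPM and those of Plac1 from 0.297 to 624 TPM.

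Within batch 9 between 10674 and 11306 genes reached 1 TPM per library. The 3 libraries labelled Ovol2 KO correlated with each other at r = 0.986 to 0.987 across genes on the log2 scale, controls at 0.981 to 0.986, and pairs across the groups at 0.974 to 0.977. Replicates came with no statement on separate litters. The p-values rest on the spread within groups, pooled over the 145 screen libraries of the fit and not over these libraries alone. That spread may be technical.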

How the data were processed

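Smart-seq2 RNA of the libraries was deposited by the authors as a table of TPM values for 25006 genes. The submitters' processing notes name HISAT2 (version 2.2.1), StringTie (also 2.2.1), Cufflinks and the genome build mm10, and say nothing of how they were combined. Columns of the 148 screen libraries summed to between 984852 and 993356 TPM. No read counts were used here, so sequencing depth and counting error are unknown, and a value of 0 may be a failed estimate.

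Genes at 1 TPM in 3 or more compared libraries entered linear models in limma (version 3.58.1, R 4.3.3; lmFit, and eBayes with a trend) as log2(TPM + 1), with Benjamini-Hochberg adjustment over all genes tested and a threshold of 0.05. Fold changes on this scale understate those of low genes. The model held a mean for each of 49 groups over 145 libraries (96 residual degrees of freedom). It left out the 3 Aurkb KO libraries, which correlated with each other at 0.998. On simulated data of 11160 genes for the comparison with controls, 26.9% of changes of 1 on the log2 scale, 81.8% of changes of 2 and 90.3% of changes of 3 were recovered, with 13 false calls. These rates cover 67, 55 and 31 genes whose mean log2(TPM + 1) over both groups exceeded the size of the change. Changed genes at lower levels were not scored, so the rates do not hold for them. The simulated noise was normal, with 1 spread per gene pooled over the 145 libraries, as the model assumes. The spread of these 6 libraries may differ from it. Same-numbered libraries of both groups deviated together at r = -0.01, 0.04 and -0.02, so the numbers pair nothing and no block was used.

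Members and lists were chosen with earlier results of these data known. Named genes were Ovol2, up to 14 rises and 14 falls of the largest size (libraries that do not overlap, the higher mean at 5 TPM or more, no clone names, predicted genes or pseudogenes), up to 4 called members per list or 2 where none was called, and up to 6 genes a direction called in both comparisons. Genes named outside this rule are said in the text to have been picked after their values were seen, or are members of the lists, families, runs of neighbours and markers described. Alternatives changed the libraries in the fit, the pseudocount, the filter, the normalization, library weights, a 2-fold minimum and single libraries. Gene positions are those of GENCODE vM21 (mm10), found for 24183 symbols. Promoters came from RefSeq (GRCm38.p6), searched for motifs on both strands with Python 3.11.15 and aligned with Biopython. Figures were drawn with matplotlib.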

Additional observations from a re-analysis of the deposited data

How the results depend on the processing

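Against controls, where 74 genes passed, 266 passed with the spread of batch 9 libraries only, 389 with the 6 libraries alone, 176 with no filter on low values and 1258 with library weights within batch 9, whose estimation did not fully converge. Of the 74 genes, 70 to 74 were also called under these 4 settings. With a pseudocount of 0.1, 58 genes passed and 53 of them were among the 74. Leaving out 1 library gave 47 to 55 genes, the lowest without control replicate 1. Against the other knockouts, where 120 passed, the counts were 568, 495, 210 and 1723 under the same 4 settings and 49 with a 2-fold minimum. They were 56 to 78 when 1 library labelled Ovol2 KO was left out (56 without replicate 1, 57 without replicate 3). Leaving out 1 of the other knockouts, an alternative added after seeing the data, gave 96 to 154 genes. With the replicate number as a block within batch 9, 236 genes passed against controls and 469 against the other knockouts; the numbers share only a label.

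The Ovol2 transcript passed with library weights only, at a log2 change of 0.95. Of 41 named genes that passed, 20 passed under every alternative other than the 2-fold minimum, which was not scored by gene. Another 21 were lost under at least 1 of these alternatives, and 0 of the 41 changed direction. Of 46 that did not pass, 34 passed under at least 1 alternative. Ovol1, the paralog, changed sign, with -0.018 without Ovol2 KO replicate 1 and up to 0.55 when another library was left out, against 0.34 with all. The causes were not tested. Groups of 3 libraries and an unknown depth limit what can be seen, most of all below about 1 TPM.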

Other observations

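Some genes outside the placental and epithelial groups, picked after their values were seen, stood apart in the libraries labelled Ovol2 KO from the rest of batch 9. Snrnp70, which encodes a protein of the U1 spliceosomal particle, had 83.8, 91.3 and 85.8 TPM in the libraries labelled Ovol2 KO, against 24.6, 22.1 and 40.5 TPM in controls (limma, adjusted p = 1.68e-07) and 8.77 to 40.0 TPM in the 12 libraries of the other knockouts (limma, adjusted p = 2.38e-14). H1f5, a linker histone gene, had 64.2, 85.5 and 73.5 TPM in the libraries labelled Ovol2 KO, against 30.5, 21.0 and 20.2 TPM in controls (limma, adjusted p = 0.0179, and up to 0.163 when 1 library was left out) and 14.1 to 36.1 TPM in the other knockouts. Anp32a, an acidic nuclear phosphoprotein gene, had 102, 93.0 and 106 TPM in the libraries labelled Ovol2 KO, against 51.7, 40.5 and 46.7 TPM in controls, which did not pass (limma, adjusted p = 0.113), and 29.2 to 45.8 TPM in the other knockouts, which did (adjusted p = 0.000278). The libraries of these 3 genes did not overlap with those of either comparison group.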
